A study of Mus musculus with 18 samples.

Results

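The regions described here carried a summit of NFIA or NFIB signal in every library of the series and lay at an end of a protein-coding gene. They were chosen by their values: the 30000 highest-scoring autosomal summits of each of the 18 libraries were widened by 100 bp on each side and merged, regions with a summit from all 18 libraries were kept, and those with a midpoint within 1 kb of either end of a protein-coding RefSeq gene span were the members. This gave 2092 regions out of 103011 merged regions, of which 41987 were hit by at least 3 libraries and 6124 by all 18. The other 4032 regions common to all libraries lay farther inside genes or between genes and served for comparison. Of these, 232 (5.75%) were within 1 kb of a start listed among RefSeq promoters, though not of an end of a gene span.

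NFIA and NFIB were mapped in mouse cerebellar cells with CUT&Tag, in which an antibody tethers a transposase that cuts the DNA around the bound protein. Granule neuron progenitors (GNPs, dividing precursors of the granule neurons of the cerebellum) came from postnatal day 7, hyperplasia from postnatal day 28 and tumors, which are medulloblastomas, from adult mice. Each stage had 3 preparations of cells from a Percoll density gradient, and by the titles each preparation gave 1 library per target from 100000 cells. The names of the deposited data give another target for 6 of the 18 libraries and another replicate number for 12, so that which libraries form a preparation is not certain; the titles were used. The labels do not say that preparations came from separate mice, so p-values reflect only how preparations vary, possibly for technical reasons, and age changed together with stage. The mice are described only as a genetically engineered model: genotype, Cre driver, strain and whether animals were pooled are not given in the sources used here, and a cell line named in the design was not analysed here. The deposited lists held 49948 to 385466 summits per library, each with a −log10 value from the peak caller as its score. The second NFIA library of hyperplasia stood apart: 6132 of its summits shared the score at which its list of 30000 ended, against 1 to 2411 in the other libraries.

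Nuclear factor I proteins are transcription factors that bind as dimers to a palindrome, TTGGC followed after a short spacer by its reverse complement, and more weakly to a single core, TTGGC. In the cerebellum they act in granule neuron precursors, where they are known for their part in axon growth, dendrite formation and migration as the cells leave the cycle. The core shares letters with the CCAAT box, the site of the trimer NF-Y, which is common in promoters: read on the other strand, CCAAT is ATTGG, and ATTGGC holds both. Promoters of broadly expressed genes are usually rich in CpG and GC boxes, the sites of SP1, and lack a TATA box.

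Promoter windows that overlapped the regions show what letters lay around the gene start. The sequence under each region was not itself read, and a summit can lie outside the window. The windows are RefSeq sequences of the build GRCm38.p6, printed 5′ to 3′ on the gene's strand from 250 bases before the start, 280 bases each, with every TTGGC core, every CCAAT box and the full palindrome in capitals on either strand. The promoters of Ubxn6, Gsk3b, Rmnd5a and Rab1a are shown because these regions had some of the highest ranks across all libraries and a median summit inside the window. Gstm7 is shown for the palindrome, and Pxmp4 and Fcgrt because their scores differed between stages.
Ubxn6 (chr17:56079304-56079583, minus strand): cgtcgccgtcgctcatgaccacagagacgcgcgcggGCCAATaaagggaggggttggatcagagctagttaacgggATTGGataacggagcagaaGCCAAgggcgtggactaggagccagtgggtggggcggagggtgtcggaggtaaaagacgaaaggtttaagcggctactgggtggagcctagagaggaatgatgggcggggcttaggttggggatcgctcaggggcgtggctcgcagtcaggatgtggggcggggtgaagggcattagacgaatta
Gsk3b (chr16:38088751-38089030, plus strand): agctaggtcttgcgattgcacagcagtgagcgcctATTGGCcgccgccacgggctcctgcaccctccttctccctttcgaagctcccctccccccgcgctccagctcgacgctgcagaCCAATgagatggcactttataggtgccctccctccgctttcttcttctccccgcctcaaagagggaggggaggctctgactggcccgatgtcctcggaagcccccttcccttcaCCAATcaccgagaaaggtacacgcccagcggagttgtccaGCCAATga
Rmnd5a (chr6:71440608-71440887, minus strand): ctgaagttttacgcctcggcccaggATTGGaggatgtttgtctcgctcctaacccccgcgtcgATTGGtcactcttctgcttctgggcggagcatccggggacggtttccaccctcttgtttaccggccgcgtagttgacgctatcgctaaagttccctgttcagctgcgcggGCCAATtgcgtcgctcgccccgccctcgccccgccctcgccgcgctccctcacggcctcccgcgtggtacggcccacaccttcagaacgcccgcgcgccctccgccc
Rab1a (chr11:20201162-20201441, plus strand): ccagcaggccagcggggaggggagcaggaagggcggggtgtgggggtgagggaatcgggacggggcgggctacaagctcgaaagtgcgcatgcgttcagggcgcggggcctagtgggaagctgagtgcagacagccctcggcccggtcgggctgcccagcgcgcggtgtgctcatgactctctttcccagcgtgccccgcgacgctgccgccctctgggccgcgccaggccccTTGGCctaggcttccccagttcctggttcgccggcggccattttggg
Gstm7 (chr3:107931788-107932067, minus strand): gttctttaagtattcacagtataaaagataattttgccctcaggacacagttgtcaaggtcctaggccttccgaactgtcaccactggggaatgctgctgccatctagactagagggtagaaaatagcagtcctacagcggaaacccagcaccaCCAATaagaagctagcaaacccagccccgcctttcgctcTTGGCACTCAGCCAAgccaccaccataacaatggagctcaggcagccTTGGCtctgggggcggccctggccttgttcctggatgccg
Pxmp4 (chr2:154603644-154603923, minus strand): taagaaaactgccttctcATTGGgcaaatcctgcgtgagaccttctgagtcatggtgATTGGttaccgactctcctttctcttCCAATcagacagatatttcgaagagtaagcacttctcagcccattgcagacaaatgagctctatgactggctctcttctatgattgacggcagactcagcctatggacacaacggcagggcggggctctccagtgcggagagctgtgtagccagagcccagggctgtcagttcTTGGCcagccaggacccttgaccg
Fcgrt (chr7:45103793-45104072, minus strand): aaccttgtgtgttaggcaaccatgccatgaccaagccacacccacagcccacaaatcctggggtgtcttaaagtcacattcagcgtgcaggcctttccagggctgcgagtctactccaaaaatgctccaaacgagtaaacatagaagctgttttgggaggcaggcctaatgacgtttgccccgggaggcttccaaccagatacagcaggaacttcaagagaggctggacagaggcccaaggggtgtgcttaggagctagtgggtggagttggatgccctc

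In the printed Gsk3b window, 4 CCAAT boxes were found and 2 of them shared letters with an NFI core; the median summit lay at base 243.5. The Rmnd5a window held 3 CCAAT boxes, 1 of them with a core, and the Ubxn6 window 2 CCAAT boxes and 2 cores. Neither CCAAT box nor palindrome was found in the Rab1a window, which had a single core, and the Fcgrt window had none of these letters. The full palindrome occurred in 1 of the 2050 promoter windows that overlapped a region, that of the glutathione transferase gene Gstm7, where it reads TTGGCACTCAGCCAA. That share, 0.049%, was close to the 0.057% at gene-end regions of 3 to 17 libraries and the 0.035% of all windows. The median summit lay at base 287 of this Gstm7 window, beyond the 280 bases printed.

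In percentage points, the motif that set the windows of the regions furthest apart from those of other gene-end regions was the CCAAT box. The 2050 windows of 300 bp overlapped 1586 of the 2092 regions and belonged to 1830 genes, so some regions had several windows. CCAAT was present in 54.0% of them, against 38.1% of the 5304 windows at gene-end regions hit by 3 to 17 libraries and 38.1% of all 20085 windows. TTGGC was present in 61.2%, against 51.3% and 48.0%. The form ATTGGC, which is both, was present in 32.2%, against 20.5% and 16.8%, a larger ratio than for CCAAT. The rare ZNF143 site, in 1.22% against 0.792% and 0.443%, also had a larger ratio. For TTGGC outside ATTGGC the shares were closer, 43.0% against 38.7% and 37.6%. The longer core TTGGCA was present in 12.9%, against 10.6% and 13.1%, and outside ATTGGCA in 9.71%, against 8.54% and 10.6%. Both strands were searched, and a match is a description of these letters only.

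Base composition moved with these shares. The windows of the regions had a median of 24 CpGs and 63.3% GC, against 23 and 62.3% at gene-end regions of 3 to 17 libraries and 14 and 57.0% over all windows. Among windows with 10 to 19 CpGs, CCAAT was present in 62.2% of the 564 windows of the regions and 41.3% of all 4183, and with 30 or more CpGs in 42.4% of 531 and 26.7% of 3234. In the 87 windows with fewer than 10 CpGs CCAAT was present in 43.7%, against 40.3% of all 8451. For TTGGCA outside ATTGGCA the pooled shares hid a difference: it was more frequent at the regions in each class of CpG number, with 25.3% against 14.8% of all windows below 10 CpGs, 12.4% against 9.78% at 10 to 19, 8.99% against 7.97% at 20 to 29 and 5.46% against 4.27% at 30 or more. GC boxes (GGGCGG) were present in 76.5% of the windows of the regions and 47.0% of all, and TATAAA in 4.05% and 12.7%. The ETS core CCGGAAG, common in housekeeping promoters, was present in 18.1%, below the 22.4% at gene-end regions of 3 to 17 libraries and above the 11.9% of all windows. The shares for the cyclic AMP response element TGACGTCA were 4.29% and 2.30% of all windows, and those for the neuronal E-box CAGCTG 13.2% and 15.6%. The GLI site TGGGTGGTC was found in 4 windows of the regions, or 0.195%, against 0.174% of all.

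**Figure D1:**
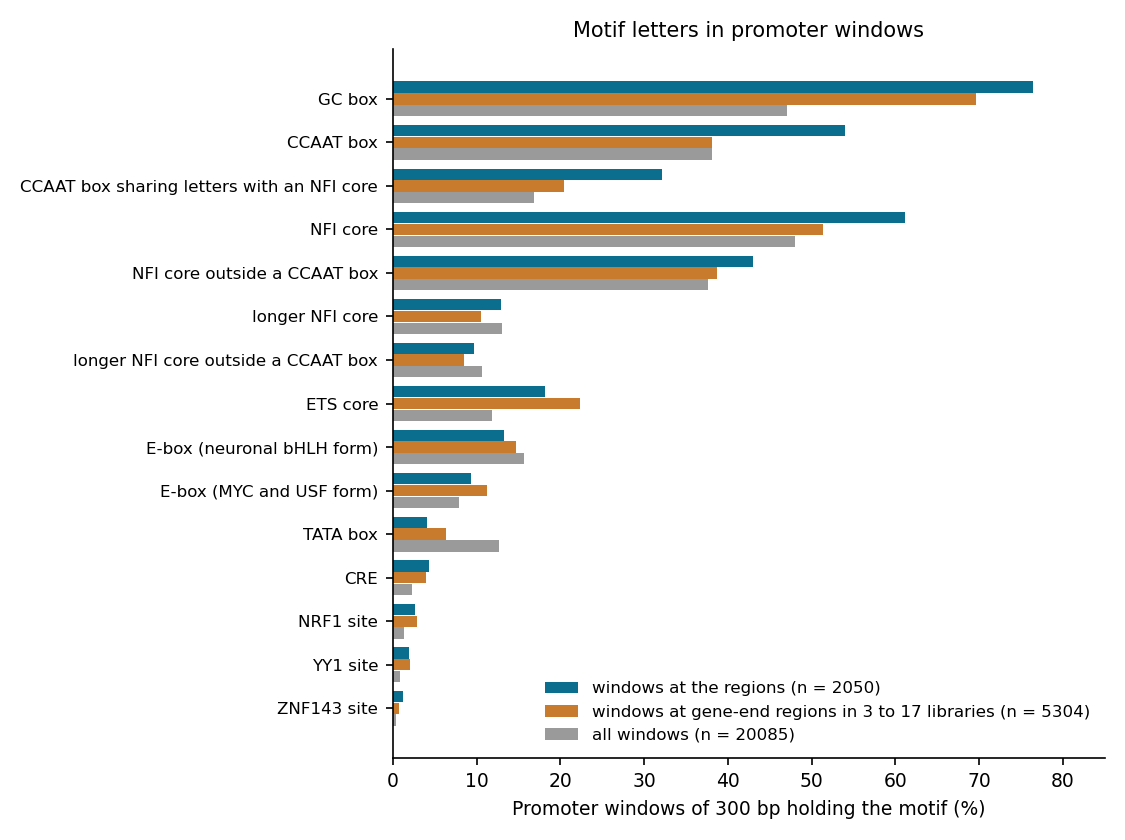
Share of 300 bp promoter windows (x axis, percent) that hold each motif on either strand, for windows overlapping the 2092 regions, windows at gene-end regions of 3 to 17 libraries and all windows. The CCAAT box reaches 54.0% at the regions and 38.1% in each of the other sets, while the longer NFI core differs little, 12.9% against 10.6% and 13.1%.

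Within these windows CCAAT was denser near the summits than far from them. The windows are placed by the gene start, and distance from the summit was not separated from position relative to the start. In 1084 windows with the median summit inside, 1 per region, CCAAT occurred 5.13 times per kb within 25 bp of the summit. It occurred 5.51 times at 25 to 50 bp, 5.11 times at 50 to 100 bp and 2.40 times at 150 to 200 bp. At gene-end regions of 3 to 17 libraries it also fell off, with 3.03 per kb within 25 bp and 1.33 at 150 to 200 bp. The longer core TTGGCA fell off at the regions too, with 0.788 and 0.434 per kb at the same distances, and outside ATTGGCA with 0.557 and 0.297, from 29 and 13 sites. The NFI core TTGGC outside ATTGGC had 2.50 and 2.12 per kb, and GC boxes 7.34 and 7.17 per kb. Regions with CCAAT in a window also had higher scores: their median rank was 3217 (n = 910), against 4700 for the 676 with a window and no CCAAT. With and without TTGGCA the medians were 3453.5 and 3888. The link was not particular to CCAAT: with and without a GC box the medians were 3665 (n = 1278) and 4753 (n = 308). For TATAAA they were 3465.5 (n = 79) and 3870.5 (n = 1507). Ranks count from 1 at the highest score.

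Nearly all of the regions were at gene starts. RefSeq promoters gave a strand for the nearest gene of 1726 regions, and 1654 of these (95.8%) were nearest a start and 72 a stop; for 366 the strand was not known. Among the 7404 gene-end regions hit by 3 to 17 libraries the share at starts was 91.2% of 5927. Regions with gene starts on both strands within 1 kb, as at divergent gene pairs, made up 15.6% of the regions of known strand, against 9.09%. The median distance from the region midpoint to the gene end was 132 bp (interquartile range 57 to 255), against 156 bp, and 74.3% lay within 250 bp, against 64.7%. Regions were 238 to 2481 bp wide with a median of 557 bp, against 490 bp.

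Summits lay on both sides of the start, farther upstream than at other gene-end regions. The median summit position was −27 bp from the gene start (interquartile range −129 to 107.4, n = 1654), and 55.8% were upstream. At gene-end regions of 3 to 17 libraries it was 64.5 bp, that is inside the gene, and 37.1% of 5405 were upstream. The summits of a region were spread over a median of 288.5 bp between libraries, close to the 295 bp of the other common regions.

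**Figure D2:**
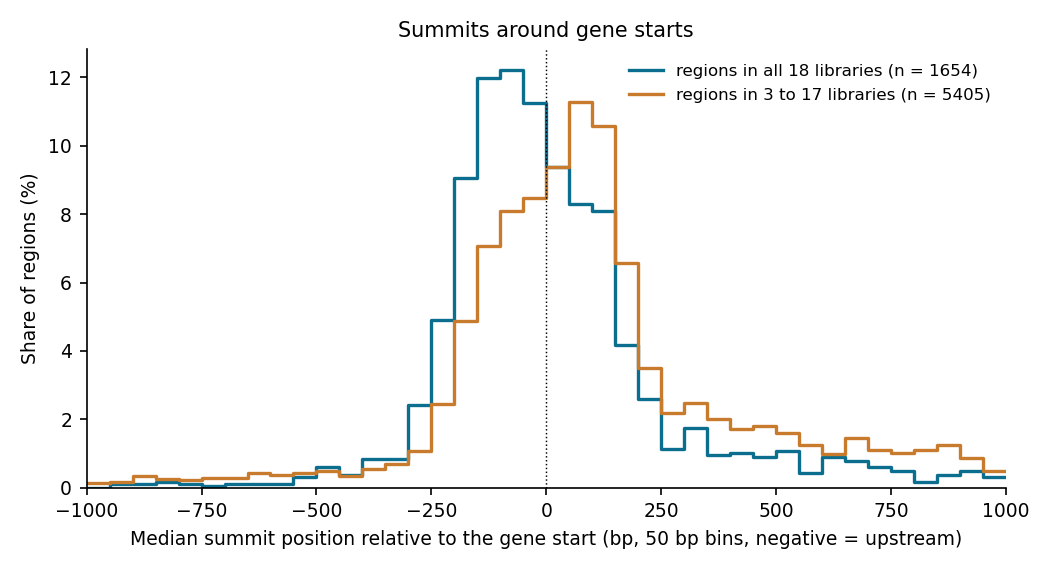
Position of the median summit relative to the gene start (x axis, bp, negative values upstream) as the share of regions per 50 bp bin (y axis, percent), for regions in all 18 libraries and for gene-end regions in 3 to 17. The first curve peaks upstream of the start, with a median of −27 bp, and the second inside the gene, with a median of 64.5 bp.

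The limit of 18 libraries cut through a continuum. A further 897 gene-end regions were found in 17 libraries and 636 in 16, and 660 of the 897 had a summit of lower score in the missing library. The library missing was the second NFIA library of hyperplasia for 325 of the 897, the first NFIB library of tumors for 167 and the first NFIA library of tumors for 106. Without that hyperplasia library the rule gave 2413 regions. At the rank limit, Atrip and Nudcd2 were just inside, each with a worst rank of 29999. At the distance limit, Tyro3 at 1000 bp and Pdcl at 998 bp were inside, while regions at Pnrc1 at 1005 bp and Npm1 at 1007 bp were common to all libraries and just outside.

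The same presence in all libraries did not mean the same score. Across the 18 libraries the SD of the log2 rank had a median of 1.01, equal to that of the other common regions, and the worst rank of a region had a median of 14202.5, against 15575. Only 56 of the regions stayed within the first 1000 ranks everywhere. Counting every member, 186 (8.89%) passed the test of at least 1 pair of stages, against 809 (20.1%) of the other common regions; both kinds had been required in all libraries, which the choice of members used.

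Ubxn6, Rab40c and Zbtb20 stayed at the highest ranks in all libraries. The best worst rank was that of Ubxn6, a cofactor of the protein-unfolding ATPase VCP (chr17:56079207-56079524). Its ranks ran from 14 to 71 with a median of 40.5 in the 6 GNP libraries, from 9 to 64 with a median of 34.5 in hyperplasia and from 7 to 46 with a median of 26 in tumors. The stages thus overlapped over nearly their whole range. Rab40c, a RAB-like subunit of a ubiquitin ligase, had ranks of 11 to 101 in GNPs, 4 to 17 in hyperplasia and 3 to 72 in tumors. Rab1a, a GTPase of transport between endoplasmic reticulum and Golgi, ranked 27 to 121 in GNPs, 9 to 21 in hyperplasia and 43 to 214 in tumors, so that all hyperplasia libraries stood above all others. Gsk3b, the kinase that phosphorylates beta-catenin for destruction, ranked 40 to 237 in GNPs, 12 to 132 in hyperplasia and 25 to 83 in tumors. The others of the first 10 by worst rank were the transcriptional repressor Zbtb20, the GTPase Rap2a, the ubiquitin ligases Pja2 and Rmnd5a, the RAB GTPase-activating protein family member Evi5l and the focal adhesion adaptor Lims1. Their worst ranks were between 129 and 225, and all 10 of these regions were nearest a gene start.

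Spread and strength were different properties. The smallest spread of log2 rank, SDs of 0.328 to 0.415, was found at Lrrc8c, Tet1, Zfp36l2, Xpa and Oxct1, with median ranks between 5522 and 18380. At the dioxygenase gene Tet1 the ranks were 10652 to 23635 in GNPs, 12573 to 22320 in hyperplasia and 12264 to 26453 in tumors. The largest spread, SDs of 2.63 to 2.95, was found at Pwwp2a, Numb, Pja2, Stt3a and Rnf44, with median ranks between 7.5 and 263. Numb, which encodes an inhibitor of Notch signalling, ranked 9 to 2657 in GNPs, 8 to 655 in hyperplasia and 32 to 4708 in tumors. On a log scale a fall from a very high rank weighs more, which widens this measure for high-ranking regions.

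As a group the regions ranked highest in hyperplasia. In each library a region had the rank of its best summit, and the NFIA and NFIB libraries of a preparation were averaged. The median rank of the regions was 4274.5, 3881.5 and 3449.25 in the 3 GNP preparations, 3325, 3456 and 2778 in hyperplasia and 5022.25, 4389.5 and 3979.75 in tumors. All hyperplasia preparations but the second, at 3456, were thus above every GNP preparation, and the first and the second tumor preparation were below every GNP preparation. With libraries paired by the number in the data name, the medians were 3541.5, 3754.5 and 4309.25 in GNPs, 3077, 2818.5 and 3663.5 in hyperplasia and 4377.25, 4432.5 and 4581.75 in tumors, so that all tumor preparations were below all others and hyperplasia overlapped with GNPs only in 1 preparation. Set against the other common regions, the median rank of the regions differed by 233, −483.25 and −942.25 in GNPs, by −861, −1094.25 and −2384.25 in hyperplasia and by 1044.75, 445.25 and −162 in tumors, where a negative value means that the regions at gene ends scored higher. The mean difference over the 9 preparations was −467 ± 1009 (SD, n = 9), so that its size was below the spread between preparations. Of the first 1000 ranks of a preparation, the regions held 299 to 393.5 in GNPs, 415.5 to 529.5 in hyperplasia and 270 to 373.5 in tumors, as the mean of its 2 libraries.

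**Figure D3:**
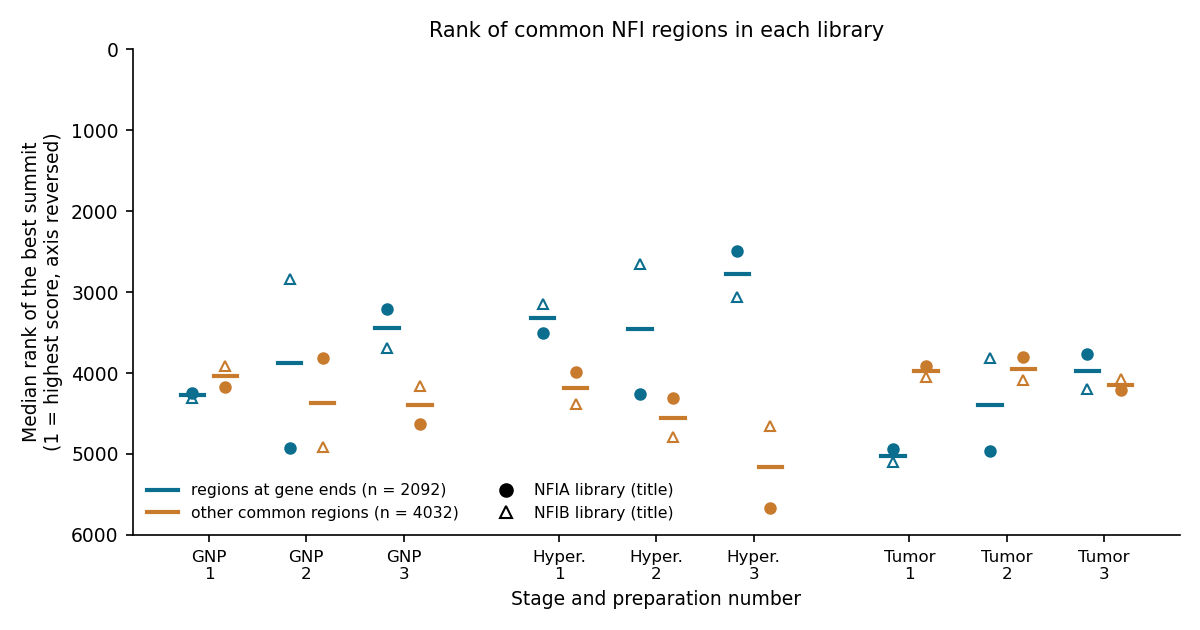
Median rank in each library (y axis, reversed, 1 = highest score) of the regions at gene ends and of the other common regions, by stage and preparation (x axis); circles are NFIA and triangles NFIB libraries by title, and bars their mean. With preparations by title, the regions at gene ends lie above the other common regions in all 3 hyperplasia preparations and below them in 2 of 3 tumor preparations.

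The regions were spread over 2499 of 20665 protein-coding genes, or 12.1%, while 46.6% of genes had an end region in at least 3 libraries. The genes with a region had a median span of 24079 bp, against 17491 bp over all genes. Among the genes with an end region in at least 3 libraries, 25.9% had a member. Several families of broadly expressed genes were above the share of all genes. Counts were 16 of 53 (30.2%) for translation initiation factors, 15 of 55 (27.3%) for RAB GTPases, 8 of 35 (22.9%) for NADH dehydrogenase subunits, 10 of 48 (20.8%) for spliceosome and SR proteins, 14 of 75 (18.7%) for mitochondrial ribosomal proteins and 14 of 77 (18.2%) for cytosolic ribosomal proteins. Set against the 25.9% of occupied genes, only some of these stood higher, with 36.4% for initiation factors and 35.7% for RAB GTPases. NADH dehydrogenase subunits had 27.6% of their occupied genes, mitochondrial ribosomal proteins 24.6%, spliceosome and SR proteins 23.8% and cytosolic ribosomal proteins 23.7%. Not every broadly expressed family followed: 0 of 28 Mediator subunits and 0 of 67 replication-dependent histones had a region, although 26 and 43 of them had an end region in at least 3 libraries. Proteasome subunits had 4 of 47 (8.51%), with 38 of them occupied in at least 3 libraries. Of families expressed mainly in other tissues, 0 of 1100 olfactory receptors, 0 of 49 keratins, 2 of 352 vomeronasal receptors (Vmn1r4 and Vmn2r29) and 4 of 93 cytochromes P450 (4.30%) had a region. For the cytochromes this was 33.3% of the 12 occupied genes.

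Genes of the cell cycle and of chromatin were also among those with a region. Over all genes 12.1% had a region, or 25.9% of those with an end region in at least 3 libraries, called occupied here. In the DNA damage response list 3 of 16 genes had a region (18.8%, and 23.1% of the occupied ones). In the cell cycle and DNA replication list 10 of 33 genes had a region (30.3%, and 38.5% of the 26 occupied ones). They included Cdk4, the G1 kinase, with a median rank of 506, and E2f3, an activator of S-phase genes, with 606.5. The replication genes Pcna and Mcm6 had median ranks of 4090 and 4224, and the proliferation marker Mki67 had 4966. In the list of chromatin remodellers and histone enzymes 7 of 22 had a region (31.8%, and 41.2% of the occupied ones). Among them were the methyltransferases Kmt2a, Setd2 and Ezh2 with median ranks of 458, 1138 and 2642. Folding genes included Hspa8, the constitutive HSC70 chaperone, with 282. In the list of mitochondrial biogenesis 5 of 12 genes had a region (41.7%, and 55.6% of the occupied ones), with Hspd1 and Hspe1 sharing theirs. Tomm40, the pore of the outer membrane translocase, led these with 305.

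Lists of neural and cerebellar genes differed in how many of their genes had a region. Of 18 granule progenitor genes 6 did (33.3%, and 37.5% of the occupied ones, against 12.1% and 25.9% over all genes): Zic1 and Zic4, which share a region, Zic5, Insm1, Sox4 and Neurod1. Their median ranks ran from 2049 at Zic5 to 9572 at Zic1 and Zic4, and 0 of the 5 regions passed the test of any pair of stages. Of the 16 genes of the Sonic hedgehog pathway, which drives division of GNPs, only Gas1, a co-receptor for the ligand, had a region, with a median rank of 1058. The medulloblastoma list had 2 of 19 (10.5%), the chromatin genes Kmt2c and Smarca4, and the list of granule neuron differentiation also 2 of 19. The NFI genes themselves had 0 of 4. Markers of other cells had 0 of 10 for astrocytes and Bergmann glia, 0 of 9 for oligodendrocytes and 0 of 10 for vessels and meninges, while Tmem119 of microglia and Pvalb and Foxp2 of Purkinje cells and interneurons each had a region. End regions in at least 3 libraries were found at 4 of 10 astrocyte, 1 of 9 oligodendrocyte, 1 of 10 microglial and 16 of 18 granule progenitor genes.

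Stmn2, which encodes a tubulin-binding protein of growing neurites, had the highest-ranked region of any listed neural gene (chr3:8561728-8562019, 269 bp from an end of the gene). Its ranks ran from 1 to 100 with a median of 21 in GNPs, from 74 to 304 with a median of 82.5 in hyperplasia and from 53 to 308 with a median of 180.5 in tumors. The normalised scores were 77.0, 63.7 and 73.4 in GNPs, 54.4, 53.6 and 43.3 in hyperplasia and 44.8, 48.6 and 46.1 in tumors, so that every GNP preparation was above every other. The log2 difference was −0.61 ± 0.16 (SE) for tumor against GNP (limma, adjusted p = 0.00636) and −0.50 ± 0.16 for hyperplasia against GNP (adjusted p = 0.0353). Between tumor and hyperplasia it was −0.11 ± 0.16 (adjusted p = 0.717).

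For all stage comparisons the highest summit score per region was put on a log2 scale, quantile-normalised over the 6124 common regions and averaged over the NFIA and NFIB library of a preparation. This scaling gives every library the same distribution over these regions. A shift of the regions at gene ends one way therefore goes with an opposite shift of the other common regions, and opposite signs of their medians are not separate results. Scores below are these normalised values on the linear scale. A region is named by the gene with the nearest end, which is not always the start. It was the stop at Smim38, Sdc1, Cadm3, 1700001O22Rik, Ptpro, Lars2, Timm50, Als2cl and Spryd3, among others, and of unknown kind where the strand was not known. Tests used limma with 3 preparations per stage and an adjusted p of 0.05 over all 6124 regions. Regions without a top summit in every library had been left out on the same scores, so the rule itself limits the number of calls.

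In hyperplasia against GNP 55 of the regions differed, and which direction was more frequent depended on the preparations and targets included. Of the 2092 regions 38 rose in hyperplasia and 17 fell, which is 1.82% and 0.813% of them; over all 6124 common regions the shares called were 2.91% and 4.88%, or 7.79% in either direction. The median log2 difference was 0.10, against −0.04 in the other common regions, and 1365 of the 2092 were above 0. The largest rise was at Fcgrt, the neonatal Fc receptor, with scores of 23.8, 19.5 and 25.7 in hyperplasia and 8.20, 12.8 and 8.72 in GNPs, a log2 difference of 1.23 ± 0.25 (SE, adjusted p = 0.000579). P2ry6, a receptor for uridine nucleotides, scored 29.7, 27.2 and 30.2 in hyperplasia and 15.1, 12.8 and 14.3 in GNPs, a difference of 1.05 ± 0.21 (adjusted p = 0.000729). For both genes the stages did not overlap. Such separation, in either direction, was found at 17.78% of the regions and 26.21% of all common regions, and the named genes were chosen for large differences. Others that rose were Smim38, the spermidine synthase gene Srm, the myosin gene Myh14, the chromatin remodeller gene Baz1b, Eml6, Cep57l1, the peroxisomal membrane gene Pxmp4 and the proteoglycan gene Sdc1, with log2 differences of 0.78 to 0.92.

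The regions that fell in hyperplasia were led by Fbxo16 and Cadm3. At Fbxo16, an F-box gene, scores were 8.95, 10.5 and 12.9 in hyperplasia and 21.6, 30.9 and 25.3 in GNPs, a log2 difference of −1.27 ± 0.24 (SE, adjusted p = 0.000228). At Cadm3, a neural cell adhesion molecule, they were 13.3, 12.9 and 11.3 in hyperplasia and 37.0, 26.7 and 24.8 in GNPs, a difference of −1.22 ± 0.22 (adjusted p = 0.000126). This region, 1 of 2 at Cadm3, lay 702 bp from the stop of the gene. Tph2, the tryptophan hydroxylase of serotonergic neurons, had 21.6, 12.8 and 18.9 in hyperplasia and 27.4, 40.2 and 39.6 in GNPs. Each of these regions had all hyperplasia preparations below all GNP preparations. Further falls were at the netrin receptor gene Unc5c, the calcium sensor gene Hpcal1, the serotonin receptor gene Htr3a, C2cd5, Prune2, Garnl3 and Fam83a, with log2 differences of −0.73 to −0.92. The count of 55 depended on single preparations: it was 22, 10, 22 and 24 without the first GNP, the second GNP, the second hyperplasia and the third hyperplasia preparation. It was 106 without the second NFIA library of hyperplasia. The split of 38 that rose and 17 that fell became 4 and 6 without the second GNP preparation and 13 and 11 without the third hyperplasia preparation, and was 1 and 2 with NFIA libraries alone and 3 and 7 with NFIB libraries alone. Fcgrt, P2ry6, Fbxo16, Cadm3, Tph2, C2cd5 and Prune2 were called without any 1 of the 9 preparations. Within the title date that GNP and hyperplasia preparations 1 and 2 share, 33 rose and 13 fell; the other shared date had 1 preparation per stage and allowed no test.

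In tumor against GNP 33 of the regions rose and 47 fell, or 1.58% and 2.25%; over all common regions 5.18% and 3.74% were called, or 8.92% in either direction. The median log2 difference was −0.08, against 0.03 in the other common regions. Fbl, which encodes the nucleolar methyltransferase fibrillarin, scored 31.8, 27.7 and 29.5 in tumors and 17.8, 10.6 and 9.47 in GNPs, a difference of 1.29 ± 0.24 (SE, adjusted p = 0.000132). This region (chr7:28168241-28168729) is 1 of 2 at Fbl and lay 408 bp from an end. Tspan11, a tetraspanin gene, scored 53.8, 40.2 and 43.0 in tumors and 27.1, 20.2 and 16.5 in GNPs. At both genes all tumor preparations were above all GNP preparations. In this comparison 18.59% of the regions and 26.09% of all common regions had no overlap, in either direction. The other 8 with the largest rise were 1700001O22Rik, the receptor phosphatase gene Ptpro, the procollagen protease gene Bmp1, Fam83e, Myh14, the cysteinyl-tRNA synthetase gene Cars, Sdc1 and Mfap4, with log2 differences of 0.88 to 1.07. At 1700001O22Rik alone among these 10 the stages overlapped, with 28.4, 16.9 and 23.4 in tumors and 17.04, 9.07 and 7.90 in GNPs. Pvalb and Foxp2, markers of other cerebellar neurons, rose: the first by 0.70 ± 0.23 (adjusted p = 0.0466) and the other by 0.66 ± 0.22 (adjusted p = 0.0478). Both were close to the threshold, and each lost its call in at least 1 of the fits that left out a preparation.

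Of the regions that fell in tumors, Atg4d, a protease that processes ATG8 proteins in autophagy, scored 11.5, 9.09 and 15.1 in tumors and 23.2, 26.7 and 27.9 in GNPs, a difference of −1.15 ± 0.23 (SE, adjusted p = 0.000330). Sptb, the erythroid beta-spectrin gene, scored 8.28, 8.53 and 8.54 in tumors and 20.6, 15.8 and 16.9 in GNPs. At both genes every tumor preparation was below every GNP preparation. Also lower were Fbxo16, the calpain gene Capn7, the mitochondrial leucyl-tRNA synthetase gene Lars2, the death-receptor adaptor gene Fadd, Unc5c, the Fanconi anemia pathway gene Faap20, Garnl3 and Enc1, with log2 differences of −0.87 to −1.14. The count of 80 was 24, 44 and 49 without the second GNP, the third GNP and the first tumor preparation, and 15 regions were called without any 1 of the 9. Without the third GNP preparation the split turned, with 25 that rose and 19 that fell. The tumor preparations have 3 title dates that no other stage shares, so date and stage cannot be told apart in either comparison with tumors.

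In tumor against hyperplasia 23 regions rose and 74 fell, or 1.10% and 3.54%, but without the third hyperplasia preparation 9 rose and 7 fell. Over all common regions 3.3% and 1.86% were called, 5.16% in either direction, and in the other common regions 179 rose and 40 fell. The median log2 difference was −0.19, against 0.09 in the other common regions. Tmem89 scored 10.4, 13.9 and 14.7 in tumors and 28.4, 30.3 and 25.2 in hyperplasia, a difference of −1.12 ± 0.22 (SE, adjusted p = 0.00144). Pxmp4 scored 10.5, 14.0 and 10.4 in tumors and 28.3, 22.5 and 21.1 in hyperplasia (−1.05 ± 0.23, adjusted p = 0.00366). Both genes had all tumor preparations below all hyperplasia preparations. Atm, the kinase that signals DNA double-strand breaks, scored 13.1, 10.5 and 12.7 in tumors and 20.1, 20.6 and 30.2 in hyperplasia (−0.95 ± 0.23, adjusted p = 0.0115). The SRF coactivator gene Mrtfa, the mitotic phosphatase gene Cdc25c, Wbp2, Capn7, Zswim4, the mevalonate kinase gene Mvk and the endocytosis gene Ehd4 were also lower, by log2 differences of −0.92 to −1.04.

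Higher in tumors than in hyperplasia were Fbl and Timm50, both on chromosome 7. Timm50, a subunit of the inner mitochondrial membrane translocase (chr7:28305597-28306282), scored 33.4, 29.4 and 30.5 in tumors and 16.5, 16.4 and 10.6 in hyperplasia, a difference of 1.13 ± 0.22 (SE, adjusted p = 0.00128). Mindy4, a deubiquitinase gene, scored 56.4, 45.5 and 48.5 in tumors and 23.5, 26.8 and 28.4 in hyperplasia (0.93 ± 0.19, adjusted p = 0.00191). No tumor preparation overlapped with hyperplasia at either gene. Lack of overlap, in either direction, was common in this comparison, at 24.95% of the regions and 24.41% of all common regions. The named genes were chosen for large differences, so it adds little to their calls. Grm4, a glutamate receptor gene of granule neurons, had 27.9, 24.97 and 21.4 in tumors and 10.6, 16.6 and 13.2 in hyperplasia (0.89 ± 0.23, adjusted p = 0.0149). Cadm3, Mrgprf, Cuedc2, Ptpro, Als2cl and Spryd3 rose by 0.87 to 1.25. The count of 97 fell to 16, 28, 31, 40 and 61 without the third hyperplasia, first tumor, second hyperplasia, second tumor and second GNP preparation, and was 187 without the second NFIA library of hyperplasia. Pxmp4, Mindy4, Fbl, Timm50, Mrgprf, Tmem89 and Stat3 were called without any 1 of the 9.

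**Figure D4:**
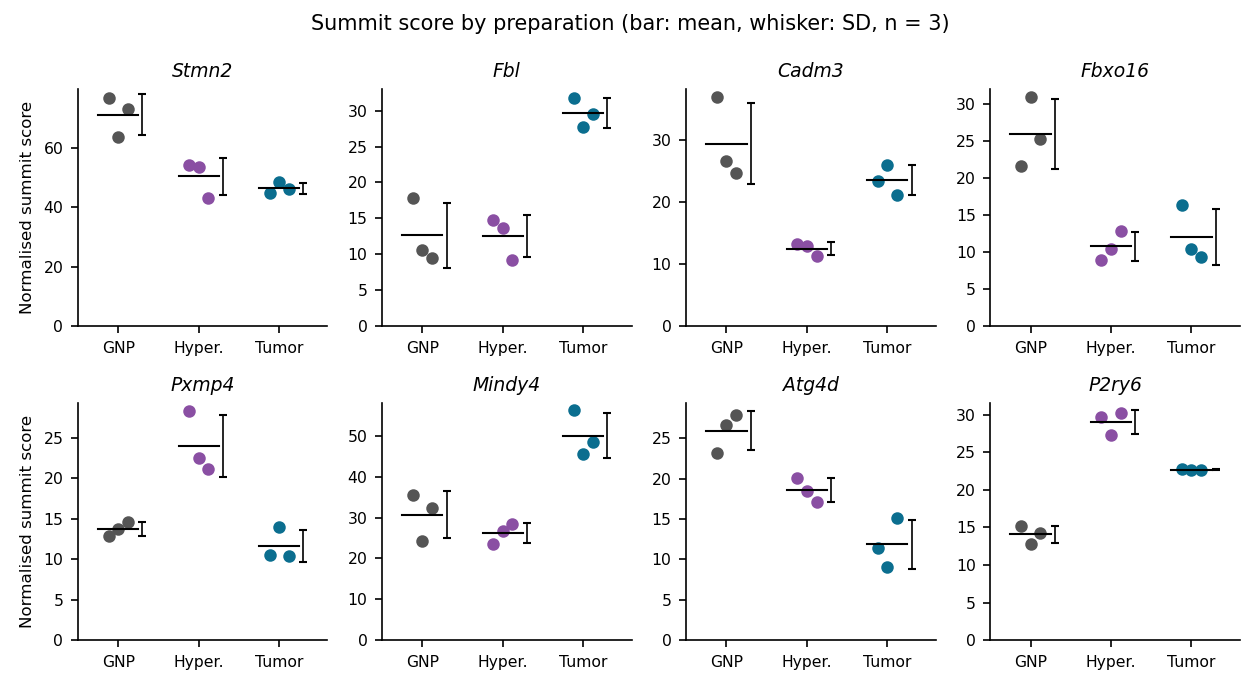
Normalised summit score (y axis, linear, each panel with its own scale from 0) at 8 regions in the 3 preparations of GNP, hyperplasia and tumor (x axis); points are preparations, bars the mean and whiskers the SD. Stmn2 is highest in all GNP preparations, Fbl and Mindy4 in all tumor preparations, and Pxmp4 and P2ry6 in all hyperplasia preparations.

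Where the regions lay relative to the gene end went with the direction of the differences. Of the 74 regions that fell in tumor against hyperplasia, 64 (86.5%) lay within 250 bp of the end, with a median of 92 bp, while of the 23 that rose 8 (34.8%) did, with a median of 472 bp; over all 2092 the share was 74.3%. By strand, 61 of the 74 were at a start and 2 at a stop, and 7 of the 23 at a start and 9 at a stop. In tumor against GNP 37 of the 47 that fell (78.7%) and 16 of the 33 that rose (48.5%) were within 250 bp. For hyperplasia against GNP the shares were alike, 76.3% of the 38 and 76.5% of the 17. The median log2 difference for tumor against hyperplasia was −0.26 for the 838 regions within 100 bp of an end and −0.05 for the 197 beyond 500 bp. With 1 preparation left out it ranged from −0.30 to −0.20 and from −0.06 to −0.01. These are descriptions of the same fits, with no test of the trend.

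**Figure D5:**
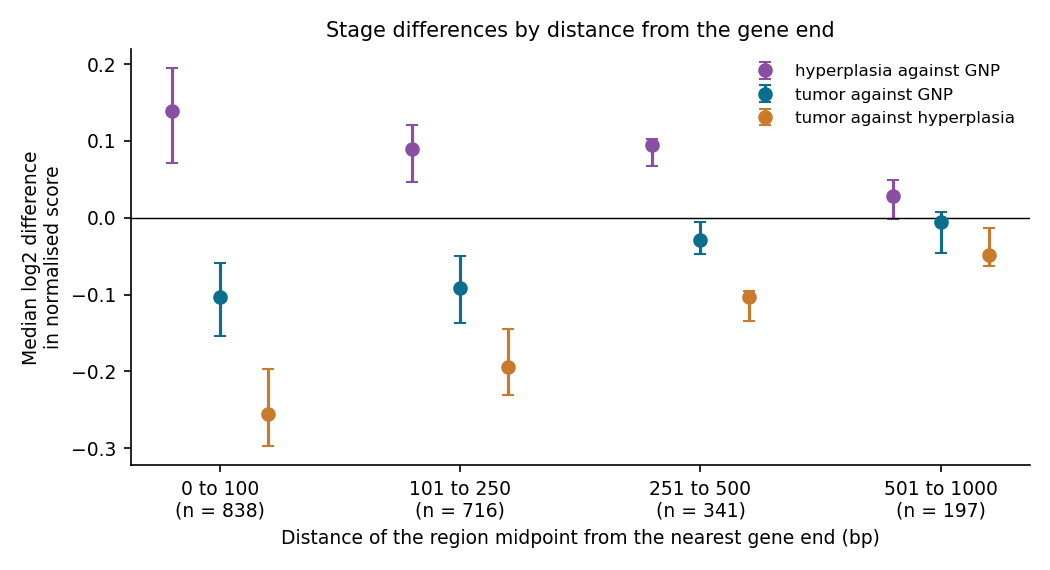
Median log2 difference in normalised score (y axis) for the 3 pairs of stages by distance of the region from the gene end (x axis, bp); whiskers show the range of the median with 1 preparation left out. Tumor against hyperplasia runs from −0.26 within 100 bp to −0.05 beyond 500 bp, and hyperplasia against GNP from 0.14 to 0.03.

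The CCAAT box went with the same pattern. Of the 910 regions with CCAAT in a promoter window 0 rose and 47 fell in tumor against hyperplasia, with a median log2 difference of −0.26. The 676 with a window and no CCAAT had 5 that rose and 12 that fell, with a median of −0.16. The 506 with no window could not be classed and had 18 that rose and 15 that fell, with a median of −0.11. Over all common regions 3.3% and 1.86% were called. In hyperplasia against GNP 18 with CCAAT rose and 4 fell, with a median of 0.15, against 7 and 8 without it, with a median of 0.06. With no window 13 rose and 5 fell, and over all common regions 2.91% and 4.88% were called. For tumor against GNP the medians were both −0.09. Regions with CCAAT also ranked higher, as given above, and the part of score level in this pattern was not tested.

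Most gene families lay below 0 in tumor against hyperplasia, as the whole set did, while the 8 regions of potassium channel genes had a median of 0.14. In tumor against hyperplasia the median log2 difference was −0.53 at the 8 regions of NADH dehydrogenase subunits, −0.35 at the 14 of cytosolic ribosomal proteins, −0.31 at the 16 of translation initiation factors, −0.27 at the 50 of Zfp zinc-finger genes and −0.26 at the 15 of RAB GTPases, against −0.19 over all 2092. Few of their members passed the test: 1 rose and 0 fell in each of the first 2, 0 rose and 1 fell at initiation factors, 0 and 4 at Zfp genes and 0 and 0 at RAB genes.

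Chromosome 6 was set against all other autosomes pooled, because it had stood out with tumors in earlier results of these data. The values are thus no independent support, and the other chromosomes were not compared singly. Of the 123 regions on chromosome 6, 9 rose and 0 fell in tumor against GNP, with a median log2 difference of 0.21 and 98 above 0. The 1969 regions elsewhere had a median of −0.10, and 24 of them rose. In tumor against hyperplasia 5 on chromosome 6 rose and 0 fell, with medians of 0.11 and −0.21, while in hyperplasia against GNP the medians were 0.09 and 0.10. Tspan11, Ptpro, Foxp2 and Mindy4 are on this chromosome. The median ranks of its regions were 5607.5, 4836.5 and 4240.5 in GNPs, 4986.5, 4756.5 and 3770.5 in hyperplasia and 5053, 3906 and 3342 in tumors. Copy number was not tested.

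Between NFIA and NFIB the labels leave the comparison unsettled. The titles and the names of the deposited data give different targets for 6 of the 18 libraries, and they agree on both target and replicate number for only 6. Within stages, scores of the regions correlated by a mean of 0.728 between libraries with the same target in the data name and 0.659 between the rest. By title the means were 0.680 for the same target and 0.691 for different targets. Which labels are right was not tested. By title, 0 of the 2092 regions differed in limma with stage as a term, and 0% of all common regions were called; 138 members had an unadjusted p below 0.05, and the smallest adjusted p was 0.492. By data name, 63 regions were higher for NFIA and 383 lower (3.01% and 18.3%), against 5.31% and 7.84% of all common regions, or 13.1% in either direction. In the 12 libraries whose title and data name agree on the target, 6 of which differ in the replicate number, 22 were higher and 198 lower, against 2.24% and 3.92% of all, or 6.16% in either direction. By title these were NFIA of preparations 1 and 2 and NFIB of preparations 2 and 3 at every stage. Target was thus partly tied to preparation and title date, and libraries of a preparation entered as separate samples.

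Numbers of regions among the first 1000 ranks show the same split. By data name they were 302, 296 and 256 in the GNP libraries named NFIA and 471, 427 and 360 in those named NFIB. In hyperplasia they were 377, 454 and 348 for NFIA and 524, 575 and 484 for NFIB, and in tumors 285, 255 and 271 for NFIA and 383, 396 and 351 for NFIB. Within each stage the 2 names did not overlap. By title they overlapped in every stage, in GNPs with 302, 256 and 427 for NFIA and 296, 471 and 360 for NFIB, in hyperplasia with 377, 348 and 575 against 454, 524 and 484, and in tumors with 285, 271 and 396 against 255, 383 and 351. The target in the data name is tied to the preparation of the titles: both libraries of preparation 1 are named NFIA and both of preparation 3 NFIB at every stage. Over the regions, the score of preparation 1 minus 3 correlated with NFIA minus NFIB in preparation 2. The correlation was 0.38 in GNPs, 0.24 in hyperplasia and 0.22 in tumors. The regions are not replicates, and which labels are right was not tested. In preparation 2 by title, whose libraries have the same target in the data name but other replicate numbers, the counts were 256 for NFIA and 471 for NFIB in GNPs, 348 and 524 in hyperplasia and 271 and 383 in tumors. There the score of the 30000th summit was lower for NFIA in GNPs, 4.42 against 9.84, and in hyperplasia, 5.14 against 9.10. In tumors it was higher, 6.49 against 5.40. Its part in the counts and in the correlations was not tested. The regions lower for NFIA by data name lay close to gene ends: of the 383 lower for NFIA 337 (88.0%) lay within 250 bp. Of the 910 regions with CCAAT 240 were lower for NFIA, against 73 of the 676 without and 70 of the 506 with no window.

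The regions with the smallest p by title, none of which passed, were Map3k3, Wbp11, E2f3, Pwwp2a and Arid4a, lower for NFIA by log2 differences of −0.46 to −0.67, and Krtcap2, Naa16, Numbl, Hs3st5 and Zfp62, higher by 0.48 to 0.65. Map3k3, a kinase of the MAP kinase cascade, had a median rank of 11 over all libraries.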

How the data were processed

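NFIA and NFIB CUT&Tag libraries were deposited as lists of summits, 1 base each, with a −log10 p or q value from the authors' peak caller as the score; the sources used here do not say which of the 2. Per the submitters' processing notes, alignment to mm10 used Bowtie2 and peak calling used MACS2; versions and any control library are not given in the sources used here. Lists were made per library and the lowest score was 2.00, so a missing summit may be a weak one. Read depth is unknown, and scores rise with depth, so no counting interval was computed and ranks or quantile-normalised scores were compared.

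Groups came from the titles. The members, gene lists, families and motifs were chosen with earlier results of these data known. The summits of the 19 autosomes were put in order of score, ties by chromosome and start. Gene spans came from the RefSeq table of GRCm38.p6 (20665 protein-coding genes), strand and promoter windows (250 bp before to 50 bp after the start) from the RefSeq promoter table, which gave a strand for 16457 genes; other regions had no strand. Of 258 listed genes 10 were not on the autosomes of the table. Motifs were searched on both strands.

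Stages were compared with limma 3.58.1 in R 4.3.3 (trend, robust empirical Bayes) over 9 preparations in 1 fit, and NFIA against NFIB over 18 libraries with stage as a term, with Benjamini-Hochberg adjustment over 6124 regions. The named genes were, per pair of stages, up to 10 regions past the threshold with the largest differences in each direction, 5 per direction for NFIA against NFIB, the 10 with the best worst rank, the 5 with the smallest and largest spread, and listed genes. A planned permutation test of member ranks over preparations is not given, since the members were chosen by rank; the values stand without a p. In tests on simulated data with 200 of 6124 regions changed, log2 changes of 1 were recovered in 74% of regions in the contrast of hyperplasia with GNP, 63% in that of tumor with GNP and 73% in that of tumor with hyperplasia, with 3, 6 and 6 false calls, and changes of 0.5 in 0% of regions for each. Alternatives covered the number of top summits, widening, ties, distance, scaling, target, dates, chromosome 6, the replicate block and single preparations. The other software was Python 3.11.15 with matplotlib 3.10.9, pandas 2.3.3, SciPy 1.17.1 and numpy 2.4.6. Coordinates are mm10, 1-based.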

Additional observations from a re-analysis of the deposited data

Results flagged for a closer look

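The X chromosome was outside the selection, which used autosomes. Applying the same steps to it gave 48 gene-end regions with a top summit in all 18 libraries, among 82 such X regions anywhere and 1895 merged X regions, with 966 protein-coding genes on the chromosome. These regions entered no comparison, and with no control library among the data there is no background to set them against. No library stood apart within its stage in the median rank of the members by Dixon's criterion for 6 values.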

How the results depend on the processing

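The number of regions was 1121 with 15000 top summits per library and within 1.5 times of 2092 in all other alternatives run, from 1490 to 2413. The share at starts was 97.8% with a limit of 500 bp from the gene end and 92.9% with 2 kb. The mean rank difference to other common regions kept its sign, between −656 and −228 with 1 preparation left out. Counts of called regions moved, and so did the split between directions, as given beside each count. With 1 preparation left out they were 10 to 76 for hyperplasia against GNP, 24 to 94 for tumor against GNP, 16 to 124 for tumor against hyperplasia and 0 to 1 for NFIA against NFIB. NFIA libraries alone gave 3, 2 and 1 calls for the 3 pairs of stages in that order and NFIB libraries alone 10, 27 and 14, with 1 library per preparation. With 20000 top summits hyperplasia against GNP gave 33 and tumor against GNP 46, and with the mean score of the summits in a region hyperplasia against GNP gave 31. Without the second NFIA library of hyperplasia the counts were 106 for hyperplasia against GNP and 187 for tumor against hyperplasia. Title date as a term gave 131 for hyperplasia against GNP. The share of libraries named NFIA in the data, a term added after seeing the data, gave 146, 164 and 246. Pairing the libraries by the number in the data names, also added after seeing the data, gave 79, 102 and 120. For NFIA against NFIB the counts were 220 in the 12 libraries with agreeing targets and 446 by data name. The cause of these shifts was not tested.

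A replicate block gave 142, 164 and 247 calls for the 3 pairs of stages and 0 for NFIA against NFIB. All 55, 80 and 97 regions of the fits without it were among them. Same-numbered preparations correlated in their deviations by −0.02 to 0.31, with number 2 near 0 in every pair. By title date, GNP and hyperplasia preparations 1 and 2 share 1 date and preparations 3 another, while tumors share none, and the data names pair the libraries otherwise; the numbers were not taken to pair the samples.

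Of the named regions, only Hs3st5 changed sign, at −0.0721 for NFIA against NFIB by data name. Stage calls of named regions kept their direction in every alternative run; 76, 37 and 70 of their alternatives for the 3 pairs of stages no longer passed. Unknown depth limits what can be said of weak regions, and the simulated log2 changes of 0.5 were not recovered with 3 preparations per stage.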
